A study of Saccharomyces cerevisiae with 12 samples.

Results

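The genes described here make, take up or control thiamine, vitamin B1, in baker's yeast. They are 10 genes given by name: the synthesis enzyme genes THI4, THI6, THI20, THI21 and THI80, the uptake genes THI7 and PHO3, and the regulator genes THI2, THI3 and PDC2. All 10 were found, each on 1 probe set of its own, among 5656 genes with a probe set of their own and 9275 probe sets tested. The signal of all 10 lay above the highest non-target control on each of the 12 arrays. The lowest signal was 13.3, for THI80 in IMZ305, where the highest control of any array was 7.5.

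Yeast builds thiamine from a thiazole part and a pyrimidine part, each made on its own branch and then joined. The joined phosphate is converted to thiamine diphosphate, the cofactor of pyruvate decarboxylase, transketolase, acetolactate synthase and the pyruvate and 2-oxoglutarate dehydrogenases. Cells also import thiamine, and when it is plentiful outside the cell the synthesis and uptake genes are kept low. The zinc-finger activator Thi2, the thiamine diphosphate binding regulator Thi3 and the activator Pdc2 drive these genes when thiamine is scarce. Synthetic media of the type named in the labels supply thiamine with the other vitamins.

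RNA came from glucose-limited chemostats, cultures held at a constant growth rate by a steady feed, in 4 groups of 3 cultures, with 1 Affymetrix 3' array per culture. The reference was CEN.PK113-7D, a prototrophic laboratory strain (MATa MAL2-8C SUC2), grown with air and, separately, without oxygen. IMZ305 was grown with air, came from the CEN.PK102-12A background (MATa MAL2-8C SUC2, with mutant alleles of URA3, LEU2 and HIS3), had ALD2, ALD3, ALD4, ALD5, ALD6, ACS1 and ACS2 replaced by markers (LEU2, HIS3, KanMX4, hphNT1, natNT2 and AmdS), and carried Escherichia coli eutE, an acetylating acetaldehyde dehydrogenase gene, on the URA3 plasmid pUDE151. IMZ383 was grown without oxygen, came from the same background, had ACS2 and ACS1 replaced by HIS3 and LEU2, and carried E. coli pflB and pflA, which encode pyruvate formate-lyase and the enzyme that activates it, on the URA3 plasmid pUDE204. Each engineered strain therefore differed from the reference in background, markers and plasmid as well as in its route to acetyl-CoA, and the arrays cannot tell these apart. The dilution rate was 0.1 per h in every culture, the temperature 30 °C and the pH 5.0. With air the feed held 7.5 g/L glucose, and without oxygen 20 g/L glucose with 10 mg/L ergosterol and 420 mg/L Tween 80, so the oxygen comparison also carries these differences of the feed.

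The arrays matched their labels, with 7 of 7 deleted genes lower in IMZ305 and 2 of 2 in IMZ383. None of the 10 thiamine genes lies within 3 genes of a deleted locus. In a sample of bulk culture RNA, fewer transcripts per cell and fewer cells of a kind cannot be told apart. The spike-in control BioB, added at hybridization, read 7.9 to 12 on aerobic references 1 and 2 and on all of IMZ305, but 42.9 to 86.2 on the remaining 7 arrays, and its part in the results below was not tested. Actin is read at its 3' and its 5' end, and the 3'/5' ratio, a sign of RNA and amplification quality, was 1.24 to 1.96 in the aerobic reference and 1.61 to 1.65 in IMZ305. Without oxygen the reference gave 1.67 to 1.90 and IMZ383 gave 1.37 to 1.47. The ratio did not overlap between the anaerobic groups, and its part in their comparison was not tested.

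With air, IMZ305 had less transcript of the plasma membrane transporter gene THI7, the acid phosphatase gene PHO3 and the regulator gene THI3 than the reference, by 2.70-, 3.37- and 2.31-fold. The synthesis genes THI6 and THI20 were also called lower, by 1.34- and 1.45-fold, close to the threshold. In the IMZ305 comparison 5 of the 10 genes were called lower (adjusted p under 0.05 in limma, adjusted over all probe sets), against 8.3% of all probe sets. None of the 10 was called higher, against 6.09%, and 14.4% of all probe sets were called in either direction. PDC2, THI21 and THI80 had overlapping groups. The groups were fully separated, with IMZ305 below, for 7 of the 10, against 16.6% of all probe sets. The median log2 change was -0.55 over the 10 genes and 0 over all probe sets.

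**Figure D1:**
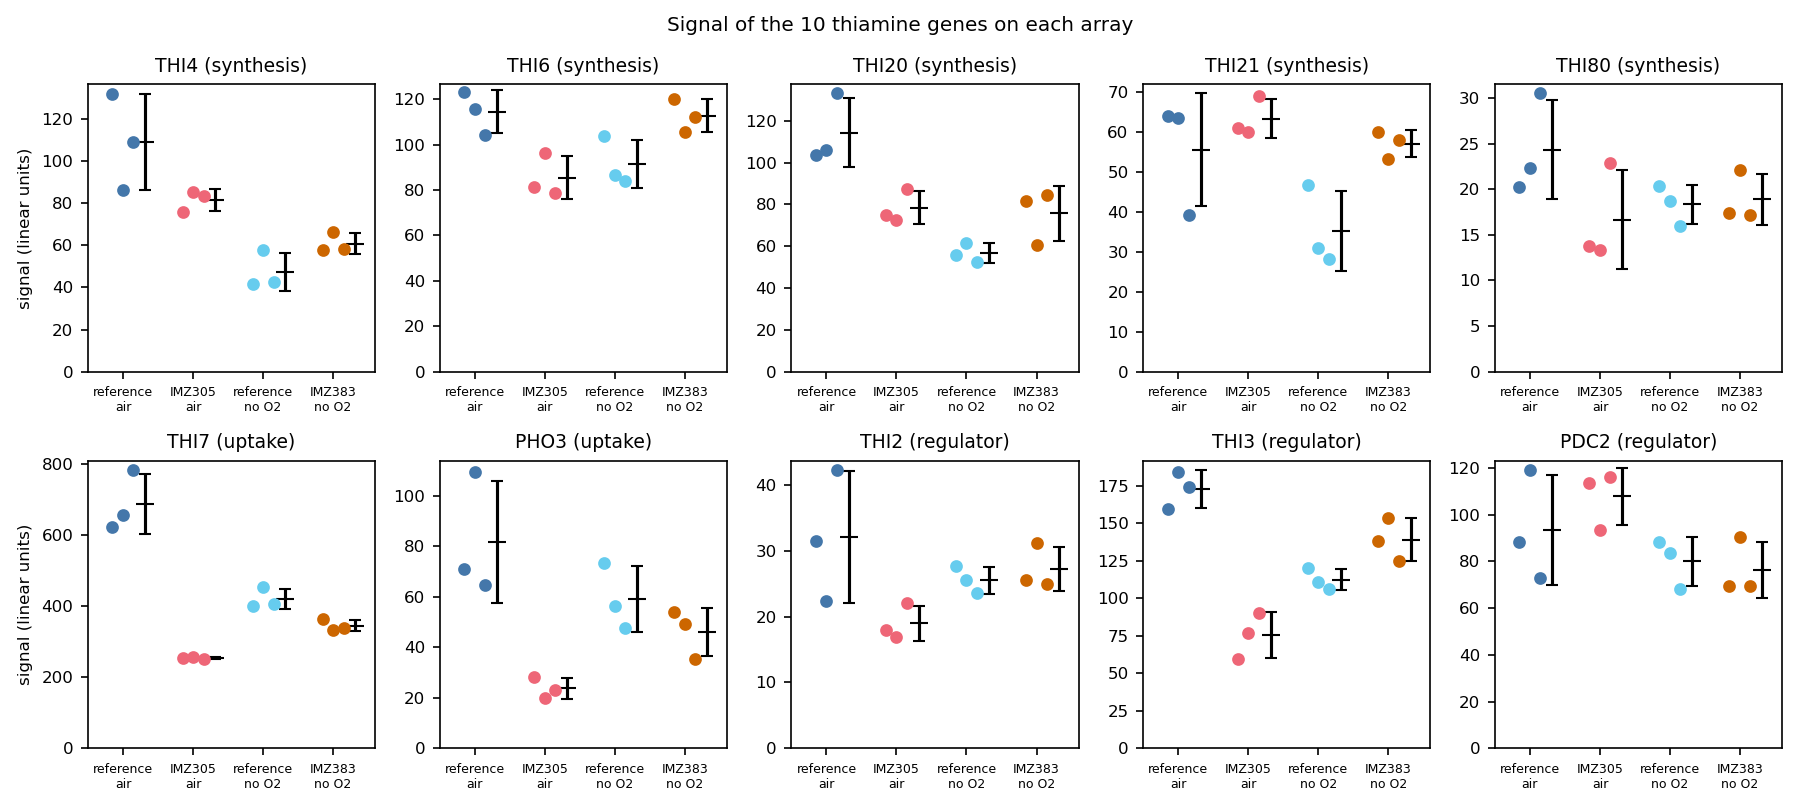
Signal on a linear scale (y axis from 0, scaled separately per gene) of the 10 thiamine genes on each of the 12 arrays, by group (x axis). Coloured points are arrays, and the black bar and whiskers are the mean and SD of 3. The IMZ305 arrays of THI7 (250.5 to 256.6), PHO3 (19.9 to 28.2) and THI3 (59.7 to 90.3) lie below those of the other 3 groups.

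In the uptake pair, THI7 (YLR237W) encodes the main high-affinity thiamine transporter. Its signal was 624.5, 657.7 and 782.7 in the aerobic reference and 254.4, 256.6 and 250.5 in IMZ305. Without oxygen it was 401.8, 453.0 and 405.3 in the reference and 362.9, 334.0 and 338.0 in IMZ383. The order was aerobic reference, anaerobic reference, IMZ383 and IMZ305, and no group touched its neighbour. With air the log2 change in IMZ305 was -1.43 (95% confidence interval -1.65 to -1.21; limma adjusted p = 3.87e-05). The call remained under all 23 alternative settings, with an adjusted p of 1.16e-05 to 0.00631. Without aerobic reference 3, whose BioB signal was higher than that of the other aerobic arrays, the log2 change was -1.34 (limma adjusted p = 8.2e-05).

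PHO3 (YBR092C) encodes a periplasmic acid phosphatase that releases thiamine from its phosphates before uptake, and thiamine represses it. The aerobic reference gave 70.8, 109.2 and 64.6 and IMZ305 gave 28.2, 19.9 and 23.2. Without oxygen the reference gave 73.4, 56.5 and 47.6 and IMZ383 gave 53.8, 49.2 and 35.5. IMZ305 stood alone at the bottom, while the aerobic reference overlapped the anaerobic reference and the latter overlapped IMZ383. PHO3 fell in IMZ305 by 1.75 on the log2 scale (95% confidence interval -2.33 to -1.18; limma adjusted p = 0.00259), and without aerobic reference 3 the log2 change was -1.90 (limma adjusted p = 0.00522). The call remained under all 23 alternative settings, with an adjusted p up to 0.0237. Its neighbour and near relative PHO5, the phosphate-repressed acid phosphatase, read 0.333 ± 0.252 (SD, n = 3) in the aerobic reference and 55.3 ± 4.29 in IMZ305. It was at least 9.21-fold higher in IMZ305 (limma adjusted p = 5.45e-10). On the 6 reference arrays, where PHO3 read 47.6 to 109.2, the PHO5 probe set read 0.1 to 0.6, and in IMZ383 it read 79.7 to 96.5. Both engineered strains come from a background other than that of the reference, so background and the other strain differences cannot be told apart for PHO5.

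Among the regulators, THI3 (YDL080C), a relative of the pyruvate decarboxylases that binds thiamine diphosphate and acts with Thi2 and Pdc2, had the clearest change. The aerobic reference gave 159.1, 184.3 and 173.9 and IMZ305 gave 59.7, 77.0 and 90.3. Without oxygen the reference gave 120.1, 110.9 and 106.2 and IMZ383 gave 138.3, 153.4 and 124.8. The order was aerobic reference, IMZ383, anaerobic reference and IMZ305, with no overlap between neighbours. The log2 change with air was -1.21 (95% confidence interval -1.54 to -0.87; limma adjusted p = 0.00112), and the call remained under all 23 alternative settings with an adjusted p up to 0.0239. THI3 was -1.20 without aerobic reference 3 (limma adjusted p = 0.00533).

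THI2 (YBR240C), the zinc-finger activator, read 31.5, 22.3 and 42.3 in the aerobic reference and 18.0, 16.9 and 22.0 in IMZ305. The groups were separated by a narrow gap, between 22.3 and 22.0, and the log2 change of -0.72 (95% confidence interval -1.20 to -0.23) missed the threshold (limma adjusted p = 0.0553). THI2 was called in 4 of 23 alternatives. Without aerobic reference 2 the log2 change was -0.95 (limma adjusted p = 0.0106), and with array weights it was -0.85 (limma adjusted p = 0.00937). The others were the filter on low mean signal (limma adjusted p = 0.0376) and 1 probe set per gene (limma adjusted p = 0.0369). Without oxygen the groups overlapped, at 27.6, 25.5 and 23.5 in the reference and 25.6, 31.1 and 25.0 in IMZ383.

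PDC2 (YDR081C), which activates the thiamine genes and the pyruvate decarboxylase genes PDC1 and PDC5, had no call in any comparison. Its means were 93.4 ± 23.5 in the aerobic reference, 108 ± 12.4 in IMZ305, 80.0 ± 10.6 in the anaerobic reference and 76.4 ± 12.0 in IMZ383 (SD, n = 3). Every pair of groups compared overlapped. The log2 change in IMZ305 was 0.23, with a 95% confidence interval of -0.21 to 0.67.

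In the synthesis group, THI6 (YPL214C) encodes the enzyme that joins the thiazole and pyrimidine parts. The aerobic reference read 123.3, 115.8 and 104.3 and IMZ305 read 81.4, 96.1 and 78.9, without overlap. Without oxygen the reference read 103.7, 86.5 and 84.1 and IMZ383 read 120.1, 105.6 and 112.2, again without overlap but in the other direction. THI6 was called lower in IMZ305 (log2 change -0.42, 95% confidence interval -0.69 to -0.16; limma adjusted p = 0.044). This call ended in 18 of 23 alternatives, among them the omission of any 1 array other than aerobic reference 3, IMZ305 replicate 2 or anaerobic reference 1, with an adjusted p up to 0.137 without IMZ305 replicate 1.

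THI20 (YOL055C) encodes a kinase that phosphorylates the pyrimidine precursor and also carries a thiaminase domain. It read 103.8, 106.1 and 133.3 in the aerobic reference and 75.2, 72.7 and 87.5 in IMZ305. The anaerobic reference read 55.8, 61.8 and 52.3 and IMZ383 read 81.9, 60.5 and 84.7. The aerobic reference was highest without overlap, and IMZ383 overlapped both IMZ305 and the anaerobic reference. The log2 change in IMZ305 was -0.54 (95% confidence interval -0.89 to -0.19; limma adjusted p = 0.0497). The call ended in 18 of 23 alternatives and without each array other than IMZ383 replicate 2, with an adjusted p of 0.155 without IMZ305 replicate 2 and 0.136 without aerobic reference 3.

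THI4 (YGR144W), the thiazole synthase, gives up a sulfur atom of its own cysteine for each thiazole it makes. It read 131.4, 86.0 and 108.9 in the aerobic reference and 75.7, 85.0 and 83.5 in IMZ305. Although the groups did not overlap, the gap was between 86.0 and 85.0, and the log2 change of -0.40 (95% confidence interval -0.79 to -0.01) was not called (limma adjusted p = 0.169). The anaerobic reference read 41.7, 57.7 and 42.6 and IMZ383 read 57.5, 66.3 and 58.4, with 1 array of each meeting at 57.5 and 57.7.

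THI21 (YPL258C) encodes a second kinase of the pyrimidine precursor, close in sequence to Thi20. Its signal was 64.0, 63.5 and 39.3 in the aerobic reference and 61.1, 60.0 and 69.0 in IMZ305, and the groups overlapped. The anaerobic reference gave 46.8, 30.9 and 28.3 and IMZ383 gave 60.0, 53.4 and 58.0. All IMZ383 arrays lay above the anaerobic reference, yet the log2 change of 0.73 (95% confidence interval 0.22 to 1.24) was not called (limma adjusted p = 0.153), and it was called with array weights (log2 change 0.85, limma adjusted p = 0.044).

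THI80 (YOR143C) encodes thiamine pyrophosphokinase, which makes thiamine diphosphate from imported or released thiamine. It read 20.2, 22.3 and 30.5 in the aerobic reference and 13.8, 13.3 and 22.9 in IMZ305. IMZ305 replicate 3 lay within the range of the reference, and the log2 change of -0.57 (95% confidence interval -1.10 to -0.04) was not called (limma adjusted p = 0.149). Without IMZ305 replicate 3 it was -0.82 and called (limma adjusted p = 0.0336), and with array weights it was -0.75 and called (limma adjusted p = 0.0366). The anaerobic groups read 20.3, 18.7 and 16.0 and 17.4, 22.1 and 17.2, and overlapped.

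Without oxygen, none of the 10 genes was called in IMZ383 against its reference in limma, and 2.29% of all probe sets were called, 1.69% higher and 0.593% lower. At an unadjusted p under 0.05, 1426 of all 9275 probe sets passed in that comparison. THI6, THI21 and THI3 lay above the reference on all 3 arrays, 3 of the 10 against 13.4% of all probe sets, and THI7 lay below on all 3, 1 of the 10 against 6.98%. The log2 changes ran from -0.36 for PHO3 to 0.73 for THI21, with a median of 0.20 against 0.06 over all probe sets. The fold between means of THI7 was 1.22 (limma adjusted p = 0.202) and that of THI3 was 1.23 (limma adjusted p = 0.381).

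**Figure D2:**
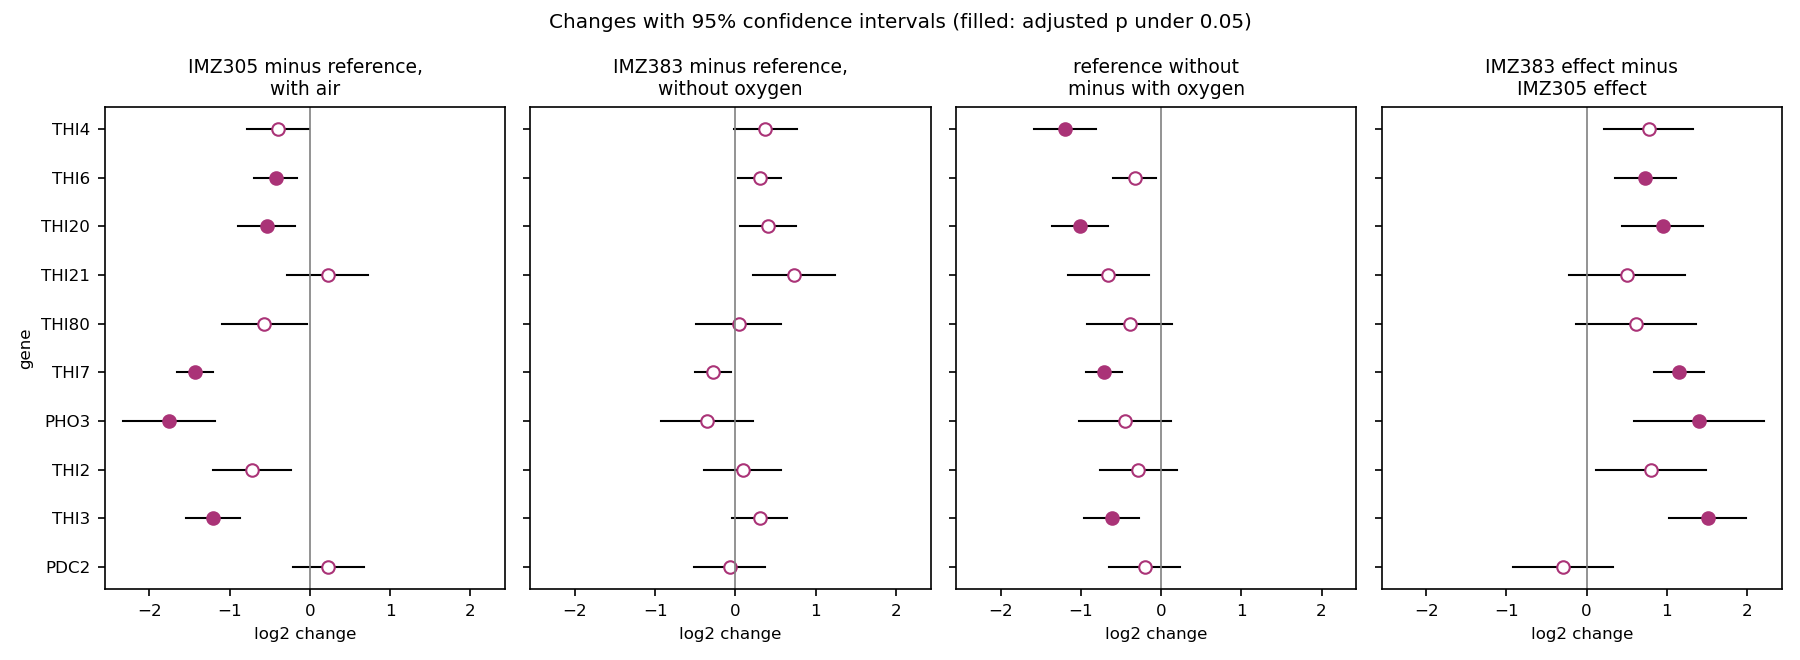
Log2 change (x axis) of each thiamine gene (y axis) in the 4 comparisons, with 95% confidence intervals as lines, and filled points where the limma adjusted p was under 0.05. The 5 filled points with air lie left of 0, the IMZ383 panel has none, the oxygen panel has 4 left of 0, and the panel of the difference between the strain effects has 5 right of 0.

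In the reference strain, the cultures without oxygen had less transcript of THI4 and THI20, by 2.29- and 2.01-fold. THI7 and THI3 were lower by 1.63- and 1.53-fold. Of the 10 genes, 4 were called lower, against 23.3% of all probe sets, and none was called higher, against 11%. Of all probe sets 34.2% were called in either direction. The groups were separated with the anaerobic arrays below for 5 of the 10, against 28.8% of all probe sets.

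THI4 changed most between the reference groups, at a log2 change of -1.20 (95% confidence interval -1.58 to -0.81; limma adjusted p = 0.000681). THI20 had -1.01 (95% confidence interval -1.36 to -0.66; limma adjusted p = 0.00102). Both calls remained under all 23 alternative settings, with an adjusted p up to 0.0165 for THI4 and 0.0145 for THI20. THI7 gave -0.71 (95% confidence interval -0.93 to -0.49; limma adjusted p = 0.000547) and THI3 gave -0.62 (95% confidence interval -0.96 to -0.28; limma adjusted p = 0.0113). With median centring of the arrays the calls of THI7 (-0.31, limma adjusted p = 0.105) and THI3 (-0.22, limma adjusted p = 0.288) ended, and with quantile normalization that of THI3 ended (-0.30, limma adjusted p = 0.122).

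All 10 log2 changes between the reference groups were negative on the deposited scale, with a median of -0.53 against -0.18 over all probe sets. Median centring moved this comparison by 0.40, after which 6 of the 10 were negative and THI6, THI80, THI2 and PDC2 were above 0, and with quantile normalization 7 were negative. THI21 had a log2 change of -0.65 (limma adjusted p = 0.0504), just outside the threshold, and was called in 6 of 23 alternatives. Among them were the omission of aerobic reference 3 (-0.89, limma adjusted p = 0.01) or anaerobic reference 1 (-0.88, limma adjusted p = 0.0132). With quantile normalization THI21 had -0.26 (limma adjusted p = 0.426). THI6 (-0.33, limma adjusted p = 0.0609) was called without anaerobic reference 1 (-0.42, limma adjusted p = 0.0288) or with a floor 2 times as high (limma adjusted p = 0.0475). The oxygen comparison and the IMZ305 comparison share the 3 aerobic reference arrays and are not independent.

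The difference between the strain effects, IMZ383 against its reference minus IMZ305 against its reference, was tested directly. THI3 differed by 1.51 (95% confidence interval 1.03 to 1.99; limma adjusted p = 0.00336) and THI7 by 1.15 (95% confidence interval 0.84 to 1.46; limma adjusted p = 0.00163). For THI3 the change was -1.21 with air and 0.30 without oxygen, and for THI7 it was -1.43 with air and -0.28 without oxygen. These 2 calls remained under all 22 alternative settings. The effects compared differ in strain, oxygen and feed together, which cannot be told apart.

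PHO3, THI20 and THI6 were also called for this difference, at 1.40, 0.95 and 0.73 on the log2 scale (limma adjusted p = 0.0439, 0.0308 and 0.0289). In all, 5 of the 10 were called higher and 0 lower, against 5.92% and 2.95% of all probe sets (8.87% in either direction), and 9 of the 10 values were positive. The count was 2 without IMZ305 replicate 1, without anaerobic reference 3 or without IMZ383 replicate 1, and 3 without aerobic reference 1, IMZ305 replicate 2 or 3, or IMZ383 replicate 3. The PHO3 call was kept under omission of an array only for aerobic reference 3, anaerobic reference 1 or IMZ383 replicate 3, and its adjusted p reached 0.106 without IMZ305 replicate 2. The THI6 and THI20 calls each ended with 7 of the 12 arrays left out in turn, THI6 without aerobic reference 1, IMZ305 replicate 1 or 3, anaerobic reference 2 or 3, or IMZ383 replicate 1 or 3, and THI20 without aerobic reference 3, IMZ305 replicate 1 or 2, anaerobic reference 1 or 3, or IMZ383 replicate 1 or 3. Their adjusted p reached 0.0758 for THI6 and 0.0817 for THI20. THI4 (0.77, limma adjusted p = 0.0849) was called without aerobic reference 2 (0.93, limma adjusted p = 0.031) or anaerobic reference 2 (0.92, limma adjusted p = 0.0488). THI2 (0.81, limma adjusted p = 0.137) was called without aerobic reference 2 (1.04, limma adjusted p = 0.0264). With array weights both were called (limma adjusted p = 0.0419 for THI4 and 0.0323 for THI2).

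Other genes of thiamine metabolism did not share one pattern. Of 15 listed, 7 had a probe set of their own and 8 lay on probe sets shared with near-identical genes. With air, 0 of the 7 were called higher and 2 lower, THI22 and THI73, against 6.09% and 8.3% of all probe sets, with a median log2 change of -0.05. THI22, a relative of THI20 and THI21, read 84.5, 62.0 and 70.0 in the aerobic reference and 46.2, 46.4 and 45.3 in IMZ305 (log2 change -0.64, limma adjusted p = 0.0213). This call ended without aerobic reference 1 or any IMZ305 array, with an adjusted p up to 0.065. THI73, a permease gene named for its thiamine-responsive expression, went from 69.8 ± 8.95 to 39.8 ± 6.88 (SD, n = 3; log2 change -0.82, limma adjusted p = 0.0117), a call that ended with only the groups compared (adjusted p = 0.0521).

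Without oxygen, none of the 7 was called in IMZ383, against 2.29% of all probe sets in either direction. Between the reference groups, 2 of the 7 were called higher, against 11% of all probe sets, and 4 lower, against 23.3%. The calls of THI22, THI73 and THI74 ended with quantile normalization and with median centring, which left 1 of the 7 lower. NRT1, a nicotinamide riboside transporter that can also carry thiamine, rose from 11.1 ± 2.55 to 27.0 ± 0.802, 2.47-fold (limma adjusted p = 0.000203), opposite in direction to its relative THI7. PET18, a gene with a domain related to bacterial thiaminase, fell from 41.6 ± 10.3 to 18.1 ± 1.93, 2.26-fold (limma adjusted p = 0.00202). TPC1, the mitochondrial thiamine diphosphate carrier, was called higher by 0.55 on the log2 scale (limma adjusted p = 0.0236), a call that ended without aerobic reference 1 or anaerobic reference 2 or 3, with array weights and with an intensity trend (adjusted p up to 0.0803). The second related transporter, THI72, was read by a pair of probe sets that disagreed with air, at 0.04 (limma adjusted p = 0.983) and -0.85 (limma adjusted p = 0.0299).

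The first step of the pyrimidine branch could be read only as a family. THI5, THI11, THI12 and THI13, near-identical genes of the pyrimidine precursor synthase, share 1 probe set. It read 144 ± 37.7 in the aerobic reference and 208 ± 13.1 in IMZ305, and 89.2 ± 6.46 and 63.7 ± 29.9 in the anaerobic reference and IMZ383 (SD, n = 3). All IMZ305 arrays lay above the aerobic reference, the opposite side from THI7, PHO3 and THI3, but the log2 change of 0.56 was not called (limma adjusted p = 0.297). SNZ2 and SNZ3, vitamin B6 synthesis genes placed beside THI5 family genes, share a probe set that fell between the reference groups from 213 ± 24.0 to 119 ± 1.69 (log2 change -0.83, limma adjusted p = 0.00162) and was not called in either strain.

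Genes of enzymes that use thiamine diphosphate moved in both directions. With air, 2 of 11 were called higher and 2 lower, against 6.09% and 8.3% of all probe sets, with a median log2 change of 0.06. ARO10, a decarboxylase of 2-oxo acids from amino acids, rose from 65.5 ± 16.0 to 195 ± 15.8, 3.04-fold (limma adjusted p = 0.000932). TKL1, the main transketolase gene, rose from 783 ± 81.5 to 1297 ± 45.0, at a log2 change of 0.73 (limma adjusted p = 0.00333). PXP1, a peroxisomal protein related to these enzymes, fell from 134 ± 5.87 to 85.4 ± 9.74, at a log2 change of -0.66 (limma adjusted p = 0.00649). The minor transketolase gene TKL2 was called lower (log2 change -1.16, limma adjusted p = 0.0347) on 1 of its 3 probe sets, and not with quantile normalization, median centring or the replicate block, or when any 1 of the aerobic arrays or anaerobic reference 2 was left out (adjusted p up to 0.0962).

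PDC1 and PDC5, the pyruvate decarboxylase genes that Pdc2 activates, were not called in either strain. PDC1 had a log2 change of 0.35 with air (limma adjusted p = 0.3) and -0.18 in IMZ383 (limma adjusted p = 0.733). PDC5 had -0.01 with air (limma adjusted p = 0.992) and 0.04 in IMZ383 (limma adjusted p = 0.916). Between the reference groups PDC1 was called higher, at 1511 ± 385 with air and 2415 ± 302 without oxygen (log2 change 0.70, limma adjusted p = 0.0228), a call that ended without anaerobic reference 2 or 3, with quantile normalization and with only the groups compared (adjusted p up to 0.124).

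Without oxygen, ARO10 was the 1 enzyme gene of 11 called in IMZ383, against 1.69% of all probe sets called higher and 0.593% lower. It was called higher on the floored signals (limma adjusted p = 0.00776), and the fold was at least 1.70. Its anaerobic reference arrays, at 3.0, 4.0 and 3.8, were under their highest non-target controls, and IMZ383 gave 9.9, 8.8 and 7.9. Between the reference groups, 5 of the 11 fell, against 23.3% of all probe sets, and 2, PDC1 and TKL1, were called higher, against 11%. With quantile normalization neither was called higher (limma adjusted p = 0.175 for TKL1). ARO10 fell at least 12.3-fold (limma adjusted p = 4.98e-07), TKL2 6.61-fold (limma adjusted p = 0.000147, called on all 3 probe sets) and PXP1 3.54-fold (limma adjusted p = 3.96e-06). KGD1, of the 2-oxoglutarate dehydrogenase, fell 1.76-fold (limma adjusted p = 0.00216; 0.0911 with median centring), and PDC6, the minor pyruvate decarboxylase gene, 2.13-fold (limma adjusted p = 0.00142).

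**Figure D3:**
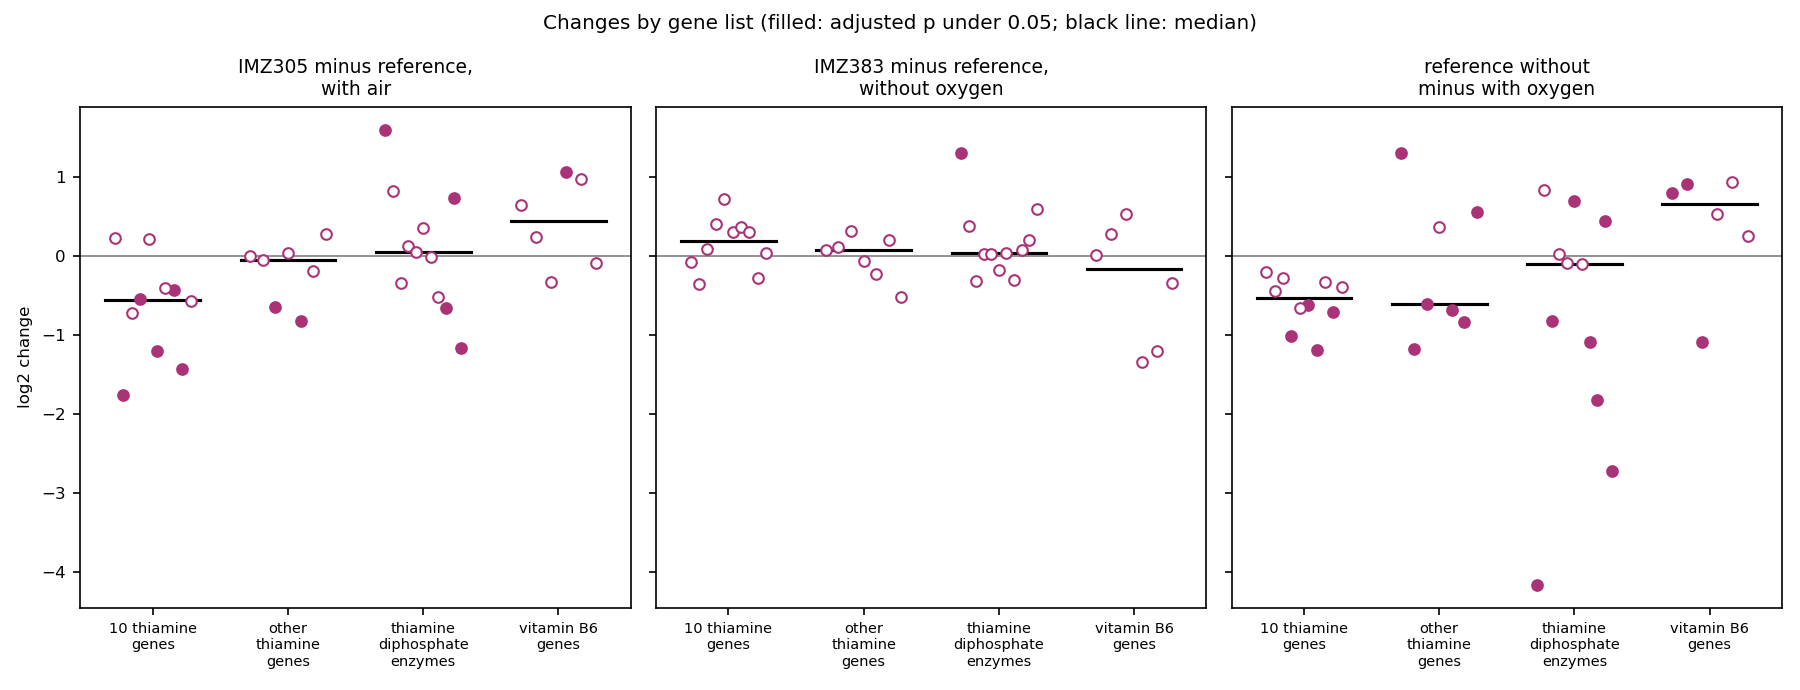
Log2 change (y axis) of single genes in 4 gene lists (x axis) for the IMZ305, IMZ383 and oxygen comparisons, with filled points where the limma adjusted p was under 0.05 and a black line at the list's median. With air the median is -0.55 for the 10 thiamine genes, -0.05 for the other thiamine genes and 0.06 for the thiamine diphosphate enzymes.

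The 10 genes also differed among themselves over the arrays. Likeness was measured as the root mean square difference of log2 signal after each gene was centred on its own mean over the 12 arrays, where 0 is an identical pattern. The closest pairs were THI80 with THI2, at 0.208, and THI4 with THI20, at 0.276. THI3 lay at 0.301 from THI2 and at 0.311 from THI7. THI4, THI7 and PHO3 each had genes outside the list, among 5343 candidates, that lay closer than any other member, as given below. The farthest pair was THI21 with PHO3, at 0.891.

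Outside the list, the genes with the most similar pattern among 5343 candidates were named for THI4, THI7 and PHO3, as a description of these arrays. THI7 was closest to MOT2 at 0.186, PAM1 at 0.211 and DIC1 at 0.22, where the median over the candidates was 0.644. MOT2, a subunit of the Ccr4-Not complex, read 38.9 ± 3.62 in the aerobic reference, 16.4 ± 0.693 in IMZ305. Its signal without oxygen was 24.1 ± 1.76 in the reference and 25.6 ± 2.90 in IMZ383. DIC1, the mitochondrial dicarboxylate carrier, read 774 ± 148 and 279 ± 31.8 with air and 626 ± 68.7 and 402 ± 23.1 without oxygen. THI4 was closest to YPL108W at 0.101, GGA1 at 0.135 and SNX4 at 0.14 (median 0.509), and PHO3 to PAM1 at 0.334, CDC34 at 0.339 and YLL066W-B at 0.368 (median 0.827). CDC34, a ubiquitin-conjugating enzyme gene, read 496 ± 26.3 and 135 ± 6.33 with air and 281 ± 33.7 and 291 ± 40.4 without oxygen.

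**Figure D4:**
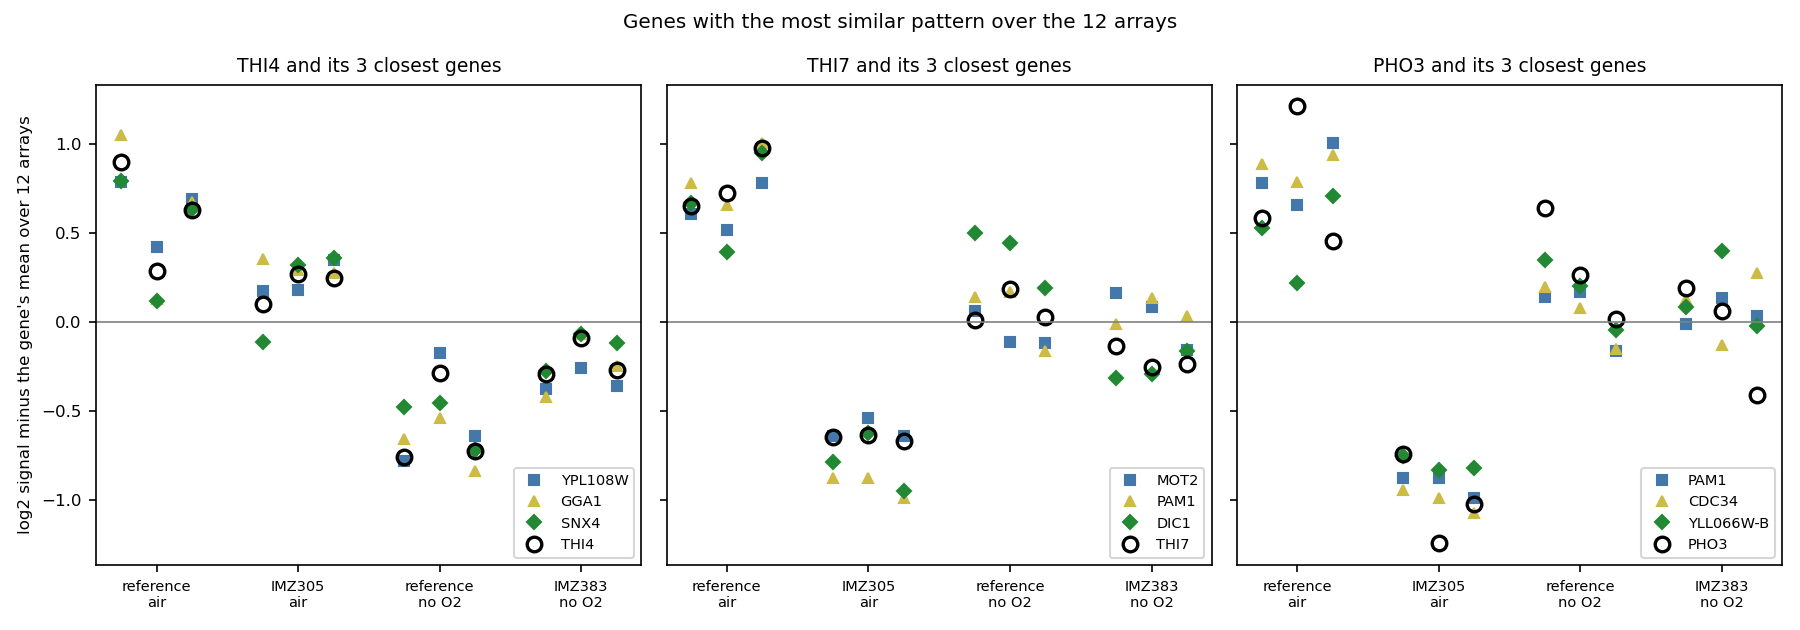
Log2 signal minus the gene's mean over 12 arrays (y axis) for THI4, THI7 and PHO3 (open black circles) and the 3 genes closest to each (coloured marks), with the arrays in order of group (x axis). The IMZ305 arrays are the lowest 3 of THI7 and of PHO3, whereas for THI4 the anaerobic arrays are the lowest.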

How the data were processed

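Total RNA of 12 chemostat cultures was measured on 12 arrays. The values the authors deposited are linear intensities, 1 per probe set. How they were summarised and scaled is not given in the sources used here. On every array the trimmed mean, leaving out 2% at each end, was 150.12 to 150.15, so the arrays share a level and changes are relative to it. Values were floored at 1.1, the 10th percentile, and log2 was taken. The model was fitted in limma 3.58.1 (R 4.3.3), with 1 mean per group over the 12 arrays, two-sided empirical Bayes tests and Benjamini-Hochberg adjustment over 9275 probe sets (60 controls left out). The call threshold was 0.05. The fit was also run on simulated data with independent noise per probe set, which lacks effects shared across an array. Its outcome is not given here. "At least" folds replace a signal under an array's highest non-target control (19 probe sets, median 0.5, highest 7.5) by that control. The p-values given with these folds come from the fit on the floored signals and do not test the folds themselves. A gene was represented by its probe set with the highest mean. Alternatives were other normalizations, floors, filters, variance models, sample sets and thresholds, a replicate block and leaving out each array. The number of arrays limits the precision, and with no other information than separate chemostat numbers, p-values measure the spread between these cultures. Members and gene lists were chosen with earlier results of these data known. All 10 members are named, and other list genes where they were called or extreme in a strain or oxygen comparison. For the difference between the strain effects, only SNO1 and SNZ1 of the other lists are described. THI22, TKL2, PXP1, PDX3 and PHO5 were also called higher for it. The calls of THI22, TKL2, PXP1 and PDX3 ended in 5, 12, 10 and 2 of 22 alternatives. For PHO5 both reference groups lay under the non-target controls. The 3 genes most like THI4, THI7 and PHO3 were named by root mean square difference. Sequences are not used here.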

Additional observations from a re-analysis of the deposited data

Results flagged for a closer look

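The effects of the strains on 5 of the 10 thiamine genes differed between the IMZ383 and the IMZ305 comparison by the test of the difference itself. Of all probe sets 5.92% were called higher for this difference. The calls of THI3 and THI7 remained under all 22 alternatives, while those of PHO3, THI6 and THI20 ended in 12, 11 and 10 of them. The difference, on the log2 scale, was 1.51 for THI3, 1.40 for PHO3, 1.15 for THI7, 0.95 for THI20 and 0.73 for THI6. All 5 were called lower in IMZ305, against 8.3% of all probe sets, but the THI6 and THI20 calls each ended in 18 of 23 alternatives. The difference contains the IMZ305 effect with its sign reversed, on the same aerobic arrays. Genes called higher for it therefore tend to be lower in IMZ305, and these calls are no separate support. None was called in IMZ383, against 2.29% of all probe sets in either direction. The log2 changes there were 0.30 for THI3, -0.36 for PHO3, -0.28 for THI7, 0.41 for THI20 and 0.31 for THI6. Strain, oxygen and feed change together between these comparisons and cannot be told apart.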

How the results depend on the processing

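No member was called higher with air or between the reference groups, or lower in IMZ383 or for the difference, under any alternative. The count of 5 called lower in IMZ305 was 3 with quantile normalization, median centring, no floor, only the groups compared, the replicate block, an intensity trend with robust prior or a 2-fold threshold, 6 with array weights or 1 probe set per gene, and 3 to 4 when 1 array was left out. The 0 called higher in IMZ383 became 1, THI21, with array weights. The 4 called lower without oxygen became 2 with median centring or a 2-fold threshold, 3 with quantile normalization and 5 at most under the other settings, and 4 to 6 when 1 array was left out. The 5 called for the difference became 3 with quantile normalization or a 2-fold threshold, 2 with median centring or no floor, 7 with array weights, and 2 to 6 when 1 array was left out. The cause was not tested, except that a 2-fold threshold removes smaller changes by construction.

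Values that changed sign were none of them called. With quantile normalization they were THI80 (-0.091) and THI2 (-0.033) in IMZ383, and THI6 (0.029), THI2 (0.060) and PDC2 (0.17) between the reference groups. With median centring they were THI80 (-0.078) and THI2 (-0.029) in IMZ383, and THI6 (0.068), THI80 (0.0024), THI2 (0.11) and PDC2 (0.19) between the reference groups. With 1 array left out, THI21 in IMZ305 ran from -0.012 to 0.34, and in IMZ383 PDC2 ran from -0.19 to 0.0082, THI80 from -0.077 to 0.12 and THI2 from -0.010 to 0.15. Of the members' values, 187 of 230 kept direction and side of the threshold with air, 221 of 230 in IMZ383, 210 of 230 between the reference groups and 182 of 220 for the difference.

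No sign of pairing by culture number was seen: the deviations of same-numbered arrays correlated between -0.03 and 0.05 over probe sets. Those of differently numbered arrays correlated between -0.07 and 0.08. With the number as a replicate block the counts were 3 lower in IMZ305, 0 in IMZ383, 4 lower between the reference groups and 5 for the difference. Each member has 1 probe set, so trying other probe sets of a member was not possible. The difference could not be fitted to only the groups compared, since it needs all 4. Signals of all members were above the non-target controls. Of the other genes given with values, ARO10 and PHO5 had arrays under these controls. Some signals lay not far above the controls, such as NRT1 at 8.5 to 13.6 in the aerobic reference.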

Other observations

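SNZ1 and SNO1 encode the subunits of a pyridoxal phosphate synthase, which makes vitamin B6. SNO1 was 48.1 ± 2.55 in the aerobic reference and 101 ± 10.3 in IMZ305 (SD, n = 3; log2 change 1.07, limma adjusted p = 0.0437), a call that ended with the replicate block and when any 1 array other than anaerobic reference 1 or 2 was left out, with an adjusted p up to 0.109. Without oxygen it was 75.1 ± 32.9 in the reference and 27.4 ± 2.16 in IMZ383 (log2 change -1.34, limma adjusted p = 0.0544). SNZ1 was called in neither strain, at a log2 change of 0.98 with air (limma adjusted p = 0.134) and -1.20 without oxygen (limma adjusted p = 0.171), where the groups overlapped. The difference between the strain effects was -2.41 for SNO1 (limma adjusted p = 0.00921), called under all 22 alternatives, and -2.18 for SNZ1 (limma adjusted p = 0.0412), a call that ended with the replicate block and when any 1 array other than anaerobic reference 1 was left out. The anaerobic reference arrays of SNZ1 spread from 109.2 to 322.3 and 359.2, with array 1 the lowest.

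Of the 6 vitamin B6 genes, 2 were called higher in the reference without oxygen, against 11% of all probe sets. Another 1 was called lower, against 23.3%. The median log2 change was 0.66, against -0.18 over all probe sets. BUD17 (log2 change 0.92, limma adjusted p = 0.000344) and BUD16 (0.80, limma adjusted p = 0.0244) were higher. The BUD16 call ended without any 1 anaerobic reference array or with only the groups compared. PDX3, the oxidase that makes pyridoxal phosphate, fell without oxygen in the reference from 678 ± 24.9 to 319 ± 36.4 (log2 change -1.09, limma adjusted p = 0.000115). The acid phosphatase gene PHO5 was 0.267 ± 0.0577 in the anaerobic reference and 88.9 ± 8.50 in IMZ383, at least 17.0-fold higher (limma adjusted p = 5.68e-10).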
